A study of Mus musculus with 6 samples.

Results

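The nuclear receptor family was described through 46 receptor genes listed by name, of which 42 were measured among the 30142 genes of the arrays. A gene counted as measured when the platform annotation gave a probe set exactly 1 gene symbol, and where a gene had several such probe sets the one with the highest mean over the 6 arrays stood for it. Ppard and Esrra shared a probe set with another symbol, no probe set carried Nr1h2 or Nr2e3 alone, and these 4 genes were not analysed here.

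Nuclear receptors are transcription factors, most of which bind DNA through a pair of zinc fingers and carry a pocket for a small lipid-soluble ligand. Steroid receptors bind DNA mostly as homodimers, many of the receptors for retinoids, thyroid hormone, vitamin D, oxysterols and fatty acids bind as heterodimers with a retinoid X receptor (RXR), and the orphan receptors have no established hormone. Ligand exchanges corepressors for coactivators on the bound receptor, which changes transcription of the target genes. In the ovary, members of the family respond to estrogen and progesterone and govern the steroid-producing cells.

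ID8 arose from the surface epithelium of a mouse ovary, and the ID8-VEGF cells used here produce vascular endothelial growth factor. They had been injected beneath the ovarian bursa, so every tumour compared here carried that same line, and late tumours were taken from 3 mice, named C1M3, C1M5 and C2M3. One group held the 3 primary tumours and the other held 3 metastatic tumours, 1 of each from every mouse, with 1 array per tumour. For the primary tumour of C2M3 the source name gives C2M2, while the title and donor label give C2M3 and were followed. The labels used here do not give the age or strain of the mice, the site of each metastatic tumour or whether a mouse had surgery. Excised tumours hold host cells as well as ID8 cells, so in every comparison that follows fewer cells of a type and less RNA per cell cannot be told apart.

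Of 8 epithelial and mesothelial markers, 6 were above background on all 6 arrays, with log2 intensities of 11.32 to 13.33 for the keratin gene Krt18, 10.11 to 11.07 for Wt1 and 14.48 to 16.06 for Upk3b. Krt7, at 5.59 to 7.58, was above it on 5 arrays and the cadherin gene Cdh1, at 4.73 to 6.69, on 4, both below it in the primary tumour of C1M3. The array medians over all genes lay between 4.90 and 5.15. The primary tumour of C1M3 stood apart in macrophage genes, with a mean of 6.68 over 8 macrophage genes against 8.61 to 9.57 on the other arrays. Fat cell genes were high in the primary tumours of C1M5 and C2M3 only, where the means over 7 genes were 8.86 and 11.28, against 5.30 to 5.72 elsewhere.

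Whether a receptor was expressed was judged on each array against genes of sensory neurons. A probe set was taken as above background when its log2 intensity exceeded the 95th percentile of 1385 olfactory and vomeronasal receptor genes on the same array, a level that ran from 4.76 in the primary tumour of C2M3 to 5.997 in the metastatic tumour of C2M3. By this measure the family fell into groups of equal size. On all 6 arrays 14 receptors were above background: Thra, Rara, Nr1d1, Nr1d2, Rora, Nr1h3, Vdr, Rxrb, Nr2c2, Nr2f2, Nr3c1, Nr4a1, Nr5a1 and Nr0b2. Another 14 were above it on 1 to 5 arrays, namely Thrb, Rarb, Rarg, Pparg, Nr1h4, Rxra, Rxrg, Nr2c1, Nr2f1, Nr2f6, Esr1, Nr3c2, Nr4a2 and Nr6a1. The remaining 14 were above it on no array: Ppara, Rorb, Nr1i2, Nr1i3, Hnf4a, Hnf4g, Nr2e1, Esr2, Pgr, Esrrb, Esrrg, Nr4a3, Nr5a2 and Nr0b1. The share above background on all 6 arrays, 33.3% of the members, was close to the 33.7% of all genes tested, and the share above it on no array was also 33.3%, beside 44.4% of all genes. With the 99th percentile as the limit only Nr1d2 passed on all 6 arrays, and with the median of all genes 22 receptors did. The limit lay at 4.76 to 5.03 on 3 arrays, the primary tumours of C1M5 and C2M3 and the metastatic tumour of C1M3, and at 5.73 to 5.997 on the other 3. Rxra, Nr2c1, Nr2f1, Nr2f6, Nr3c2 and Nr6a1 were above background on exactly the 3 arrays with the lower limit, so their counts of arrays follow the limit and do not show where the receptor was expressed. Pparg was above it on the same 3 arrays. Its values of 7.06 and 8.58 in the primary tumours of C1M5 and C2M3 exceeded the limit of every array, unlike the 5.42 in the metastatic tumour of C1M3. Probe sets differ in how strongly they respond to the same amount of RNA, so levels were not ranked between receptors.

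**Figure D1:**
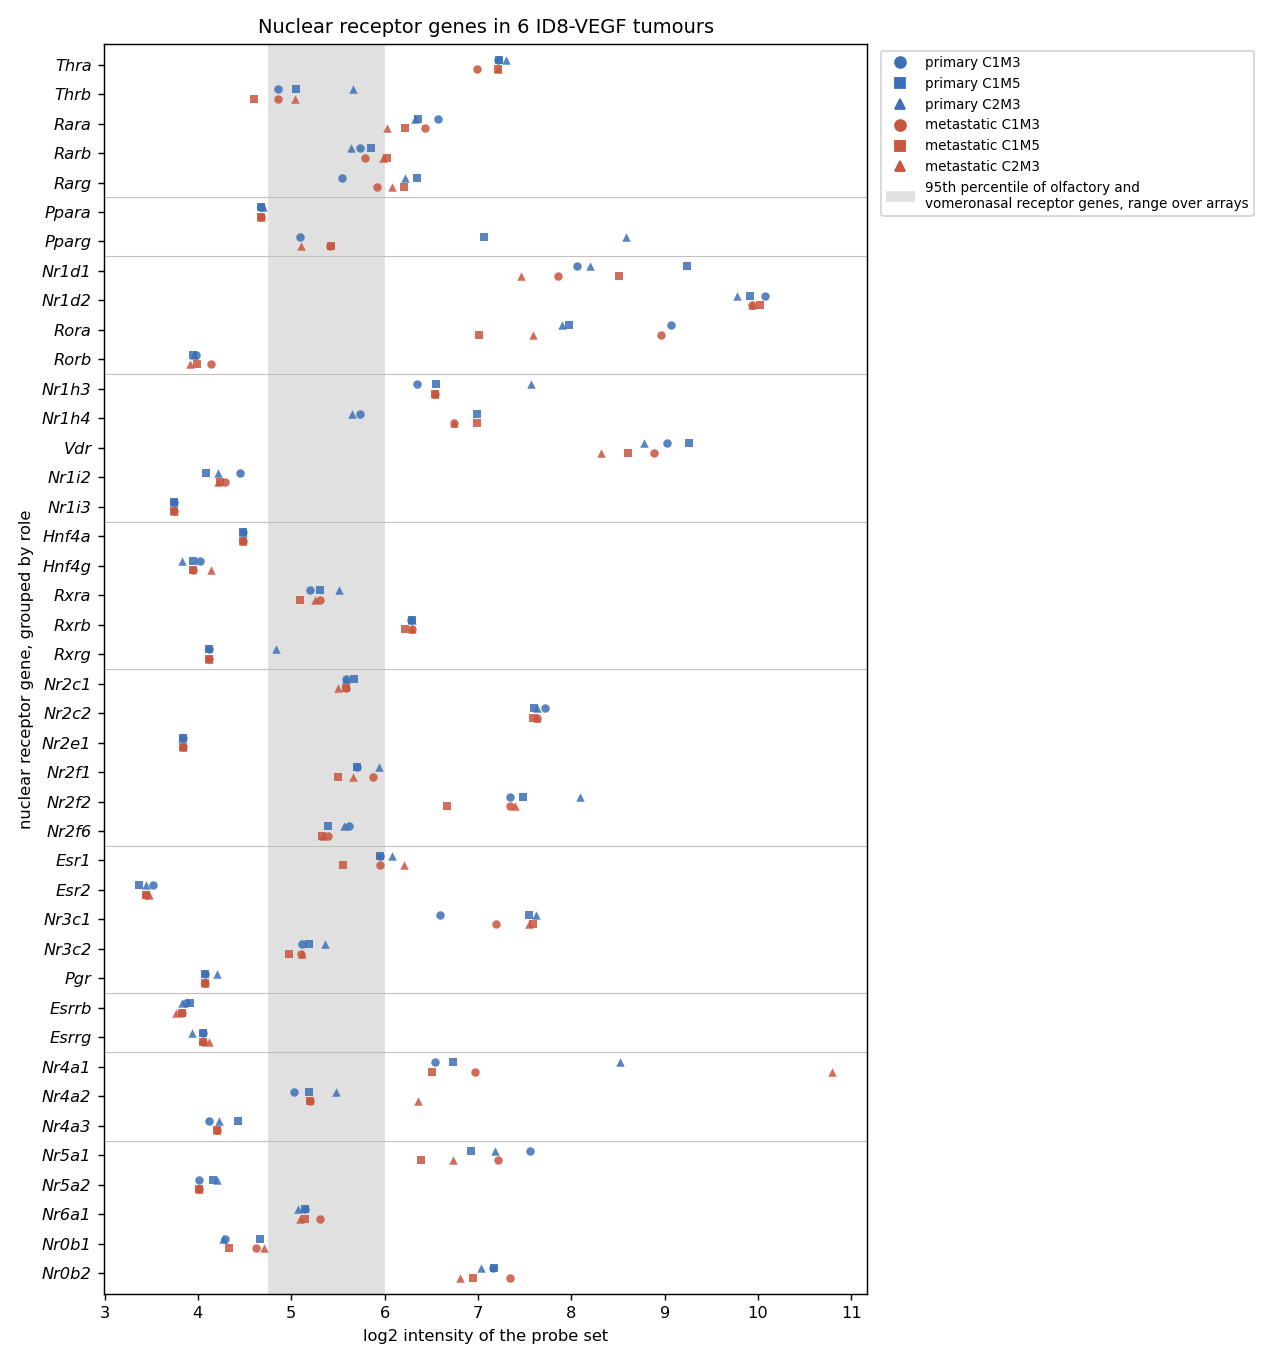
Log2 intensity (x axis) of the 42 measured nuclear receptor genes (y axis, grouped by role) on 6 arrays, with blue for primary and red for metastatic tumours and a marker shape for each mouse. The grey band runs from 4.76 to 5.997, the range over arrays of the 95th percentile of sensory receptor genes; 14 receptors lay above that limit on every array, and Nr4a1 and Pparg had the widest spread.

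No receptor passed the test for a difference between metastatic and primary tumours. The tumours were compared within mice by a linear model in limma with the mouse as a block, over all 30142 genes, and 0 of 42 members had an adjusted p (Benjamini-Hochberg) under 0.05, as did 0% of all genes. The smallest adjusted p of a member was 0.841, which was also the smallest of any gene. At an unadjusted p under 0.05 there were 2 members lower in metastatic tumours, Nr5a1 and Nr1d1, and 0 higher, against 1.97% of all genes lower and 2.96% higher. Without the block 0 members passed, and 0 had an unadjusted p under 0.05. Each difference given is the metastatic minus the primary log2 value, with limma's moderated standard error (SE).

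A lower mean in metastatic tumours was found for 26 of the 42 receptors and a higher mean for 14, while Hnf4a and Nr1i3 had the same value on every array. The share with a lower mean was 61.9%, beside 43.9% of all genes, where 55% of all genes had a higher mean. The median difference of the receptors was -0.05 beside 0.02 over all genes. By mouse the receptor median was 0 in C1M3, -0.07 in C1M5 and -0.06 in C2M3. Centring each array on its median lowered the difference of every gene by about 0.11, after which 36 receptors, or 85.7%, and 69.6% of all genes had a lower mean. The receptors added by centring had differences of 0 to 0.08 before it. Among them were Hnf4a, Nr1i3, Rorb, Hnf4g, Nr2e1, Esr2 and Esrrg, all below background on every array. Centring on the sensory receptor genes gave 35 receptors and 64.3% of all genes. The difference was negative in all 3 mice for 10 receptors, or 23.8%, beside 8.64% of all genes, and positive in all 3 for 2 receptors, beside 11.1% of all genes. Ranges of the groups overlapped for every receptor, where 2.84% of all genes lay wholly lower and 4.79% wholly higher in metastatic tumours. Identical values on at least 2 arrays occurred in 27 of the 42 receptors, among them many of the dim ones. Thra, Nr1d2, Nr1h3, Rxrb, Nr2c2, Nr2f2 and Nr3c1, above background on every array, had such ties too. A difference of 0 within a mouse, as for Nr2f2 in C1M3, is a tie of this kind.

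Among the 14 receptors above background on every array, 11 had a lower mean in metastatic tumours, beside 47.1% of all genes above background on every array. Thra, Rara, Nr1d1, Rora, Vdr and Nr5a1 were lower in each mouse, 6 of the 14 beside 12.2% of such genes. For 0 of the 14 did the metastatic group lie wholly lower, beside 3.63% of such genes. The range over the 6 arrays was at least 2 for Nr4a1 and Rora, 2 of the 14 beside 10.1%, and its median was 0.98 beside 0.68. Among other genes, Krt18 had a lower metastatic value in each mouse, a mean of -0.85 (SE 0.26, unadjusted p = 0.0447 and adjusted p = 0.841 with limma). This was the widest difference among the 8 epithelial and mesothelial markers. Of these markers 4 had a lower and 4 a higher mean, with a median difference of -0.007. All 4 measured proliferation genes had a lower mean, with list means of 10.65, 9.05 and 8.68 in the primary tumours of C1M3, C1M5 and C2M3 and 9.31, 9.06 and 7.57 in their metastatic tumours, and Mki67 and Plk1 were lower in each mouse. The part of tumour cell content or proliferation in the receptor values was not tested.

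**Figure D2:**
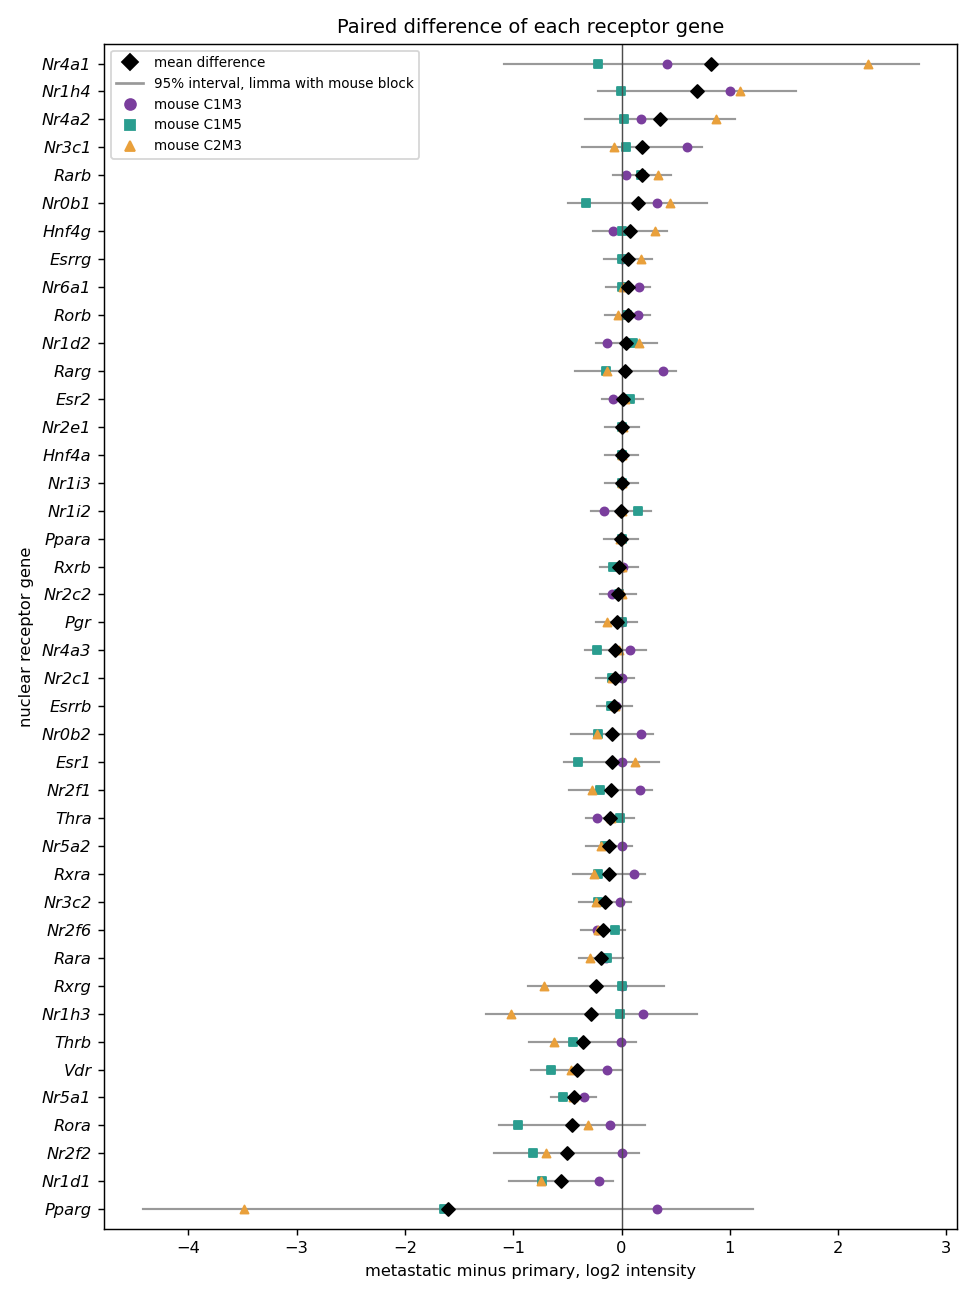
Difference between the metastatic and the primary tumour in log2 intensity (x axis) for each of 42 nuclear receptor genes (y axis), with coloured markers for the 3 mice, black diamonds for the mean and grey lines for the 95% interval from limma with the mouse as a block. Pparg had the lowest mean at -1.60 and Nr4a1 the highest at 0.83, both with wide intervals, while Nr5a1 had close values in the 3 mice.

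Among steroid hormone receptors, the glucocorticoid receptor gene Nr3c1 was above background on all 6 arrays. Its log2 intensities were 6.59, 7.55 and 7.62 in the primary tumours of C1M3, C1M5 and C2M3 and 7.19, 7.59 and 7.55 in their metastatic tumours, and values for other genes follow the same order of mice. The primary tumour of C1M3 was the low array, and the other 5 lay within 7.19 to 7.62. The mean difference was 0.19 (SE 0.18, limma adjusted p = 0.841), and -0.01 without mouse C1M3. That array also had the lowest macrophage gene mean, and all 8 macrophage genes had a higher mean in metastatic tumours, with list means of 6.68, 9.01 and 9.57 in primary and 8.61, 8.91 and 9.52 in metastatic tumours. It was also the lowest array for fibroblast genes, at 7.53 against 9.01 to 11.17, and for T and B cell genes, at 4.42 against 4.66 to 5.13. The part of host cells in the Nr3c1 values was not tested.

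The estrogen receptor alpha gene Esr1 lay at 5.95, 5.95 and 6.08 in primary and 5.95, 5.55 and 6.21 in metastatic tumours and was above background on 5 arrays, the exception being the metastatic tumour of C1M5. Its 95% interval for the difference, -0.53 to 0.34, leaves room for a fall or a rise. Esr2, which encodes estrogen receptor beta, ranged from 3.37 to 3.52, and the progesterone receptor gene Pgr from 4.07 to 4.21, both below the background limit of every array. Nr3c2, which encodes the mineralocorticoid receptor, was above background on 3 arrays with values of 4.98 to 5.36. Metastatic tumours had the lower Nr3c2 value in every mouse, by 0.01, 0.22 and 0.24.

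Of the glucocorticoid receptor targets, 7 of 8 measured genes were lower on average in metastatic tumours, their median being -0.16, and 0 passed the test. The widest differences were those of Zbtb16, a zinc finger gene induced by glucocorticoids, at -0.82 (SE 0.47), the phosphatase gene Dusp1 at -0.77 (SE 0.48) and the metallothionein gene Mt2 at -0.54 (SE 0.18). Zbtb16 was above background on 2 arrays only, the primary tumours of C1M5 and C2M3. Zbtb16 and Dusp1 were higher in the metastatic than the primary tumour of C1M3, by 0.30 and 0.27, while Mt2 was lower in each mouse. Fkbp5, a chaperone partner of steroid receptors that glucocorticoids induce, had values of 7.13 to 7.44 and a difference of -0.05 (SE 0.06). All 5 measured estrogen receptor targets, Pgr among them, had lower means, with 0 past the test. Of these, Pgr and Ltf were below background on every array. The widest difference was that of Igfbp4, an insulin-like growth factor binding protein gene, at -0.83 (SE 0.71). Its differences were 0.64 in C1M3, -0.77 in C1M5 and -2.37 in C2M3. The growth regulator Myc differed by -0.63 (SE 0.27) and Greb1, an estrogen-induced gene, by -0.16 (SE 0.26).

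Of the 5 thyroid hormone and retinoic acid receptor genes, 3 had a lower and 2 a higher mean in metastatic tumours. Thra, which encodes thyroid hormone receptor alpha, had log2 intensities of 7.21, 7.22 and 7.30 in primary and 6.99, 7.21 and 7.21 in metastatic tumours, and 5 of the 6 arrays lay within 7.21 to 7.30. Thrb, the gene of the beta receptor, was lower in the metastatic tumour of each mouse, by 0.01, 0.45 and 0.62. It exceeded background in the primary tumours of C1M5 and C2M3 alone, a count that depends on the limit. Thrb stood at 5.04 in the metastatic tumour of C2M3 and 5.05 in the primary tumour of C1M5, where the limits were 5.997 and 4.86.

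Rara, the retinoic acid receptor alpha gene, lay at 6.58, 6.35 and 6.32 in primary and 6.44, 6.22 and 6.03 in metastatic tumours. Metastatic values were lower in every mouse while the groups overlapped, and the mean difference was -0.19 (SE 0.07, unadjusted p = 0.0616 and adjusted p = 0.841 with limma). Rarb, itself a target of retinoic acid, differed the other way in every mouse, by 0.05, 0.18 and 0.34, a mean of 0.19 (SE 0.08, adjusted p = 0.841 with limma). The gamma receptor gene Rarg was lowest in the primary tumour of C1M3, at 5.54, and lay within 5.92 to 6.35 on the other 5 arrays.

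Target genes of retinoic acid receptors were mixed, 3 of 7 with a lower and 4 with a higher mean, none past the test. The widest difference was 0.56 (SE 0.43) for Rarres2, which encodes the chemoattractant chemerin. Dhrs3, a retinaldehyde reductase gene, had 9.65, 11.95 and 12.14 in primary and 11.05, 11.64 and 11.89 in metastatic tumours, with the primary tumour of C1M3 lowest. Stra6, the gene of a retinol transporter, differed by 0.21 (SE 0.52). Cyp26a1, which encodes an enzyme that clears retinoic acid, lay below background at 3.53 to 3.77.

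Pparg had the widest mean difference of the family. It encodes the peroxisome proliferator-activated receptor gamma, a fatty acid receptor required for fat cell formation, and it fell outside the rule for named genes, being singled out after its values were seen. Primary tumours had log2 intensities of 5.09, 7.06 and 8.58 and metastatic tumours 5.42, 5.42 and 5.10. Only the primary tumours of C1M5 and C2M3 were high, while the other 4 arrays lay within 5.09 to 5.42, of which the metastatic tumour of C1M3 was above background. Within the mice the differences were 0.33, -1.64 and -3.48, so that C1M3 differed in direction from the other mice. With a mean difference of -1.60 (SE 0.89, limma adjusted p = 0.841), the 95% interval ran from -4.42 to 1.22, and the difference was -0.66 without mouse C2M3 and -2.56 without mouse C1M3.

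Fat cell genes were high in the same tumours as Pparg. Adipoq, the gene of the fat cell hormone adiponectin, had 5.80, 10.59 and 13.21 in primary and 6.09, 6.01 and 5.75 in metastatic tumours. All 7 measured fat cell markers, led by the resistin gene Retn at -5.02 (SE 2.14), were lower on average in metastases, with list means of 5.52, 8.86 and 11.28 in primary and 5.72, 5.69 and 5.30 in metastatic tumours. All 8 measured PPARG targets, of which Adipoq, Fabp4, Plin1 and Cidec are also fat cell markers, had lower means with a median of -2.65, and 0 passed the test. Cidec, a lipid droplet gene, differed by -3.64 (SE 1.65) and Fabp4, a fatty acid carrier gene, by -3.50 (SE 1.88). Smooth muscle genes were highest in the same primary tumours, with list means of 5.80, 7.26 and 8.14 in primary and 6.33, 6.29 and 6.49 in metastatic tumours, and all 6 genes were lower on average in metastases. The part of fat cells or smooth muscle in the Pparg values was not tested. Rxrg, which encodes retinoid X receptor gamma, exceeded background in the primary tumour of C2M3 alone, at 4.83, and lay at 4.12 on the other 5 arrays.

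**Figure D3:**
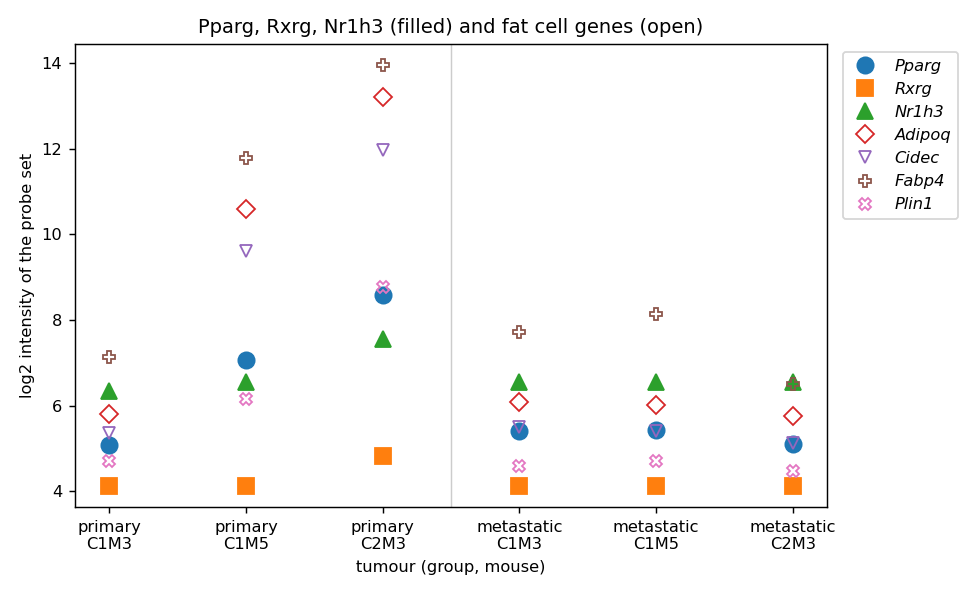
Log2 intensity (y axis) of Pparg, Rxrg and Nr1h3 (filled markers) and of the fat cell genes Adipoq, Cidec, Fabp4 and Plin1 (open markers) in each of 6 tumours (x axis). Pparg reached 7.06 and 8.58 in the primary tumours of C1M5 and C2M3, where the fat cell genes were also high, and lay within 5.09 to 5.42 in the other tumours.

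Ppara, the gene of the receptor alpha that drives fatty acid oxidation in liver, lay at 4.68 to 4.69 on every array, below background. All 7 measured targets of PPARA and PPARD were lower on average in metastases, the median being -0.32 and 0 past the test. Pdk4, a kinase gene that restrains pyruvate use and responds to several nuclear receptors, had 8.65, 8.53 and 8.87 in primary and 7.59, 6.52 and 7.44 in metastatic tumours, and its groups did not overlap. Its difference of -1.50 (SE 0.23) had an unadjusted p of 0.0072 and an adjusted p of 0.841 with limma. Angptl4, which encodes a lipase inhibitor, differed by -0.50 (SE 0.61) and the peroxisomal oxidation gene Ehhadh by -0.39 (SE 0.17). Ehhadh was above background in the primary tumour of C2M3 alone. Cpt1a, the gateway enzyme gene of mitochondrial fatty acid oxidation, lay at 13.81 to 14.75 and differed by -0.32 (SE 0.25).

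Nr1h3, which encodes the oxysterol receptor LXR alpha of macrophages, liver and fat, had 6.35, 6.55 and 7.56 in primary and 6.54, 6.54 and 6.54 in metastatic tumours. The primary tumour of C2M3 was the high array. That tumour also had the highest gene means for fat cells, macrophages, fibroblasts, endothelial cells, smooth muscle, and steroid-producing and granulosa cells. The part of any of these cells in the Nr1h3 values was not tested. The mean difference of Nr1h3, -0.28 (SE 0.31, adjusted p = 0.852 with limma), became 0.09 without mouse C2M3. LXR targets were split, with 3 of 7 lower, 4 higher and 0 past the test. Apoe, a lipid carrier gene, had the widest difference, 0.32 (SE 0.45). Abca1, the cholesterol exporter gene, had 7.55, 9.12 and 10.57 in primary and 8.52, 8.70 and 9.33 in metastatic tumours, and Mylip, which encodes a ligase that degrades the LDL receptor, had 5.86, 9.05 and 10.23 and 7.93, 7.66 and 8.69. Both were lowest in the primary tumour of C1M3 and highest in that of C2M3.

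Nr1h4, the gene of the bile acid receptor FXR, had 5.74, 6.99 and 5.65 in primary and 6.75, 6.98 and 6.74 in metastatic tumours. The primary tumours of C1M3 and C2M3 were low, and the other 4 arrays lay within 6.74 to 6.99. The mean difference of 0.70 (SE 0.29, adjusted p = 0.841 with limma) came from C1M3 and C2M3, with 1.005, -0.01 and 1.09 in the 3 mice. Nr0b2, which encodes the repressor SHP, a known FXR target in liver, was above background on all arrays at 6.80 to 7.35 and differed by -0.09 (SE 0.12). Nr1i2 and Nr1i3, the xenobiotic receptor genes PXR and CAR, lay below background at 4.08 to 4.45 and at 3.75. Hnf4a at 4.48 and Hnf4g at 3.82 to 4.14, genes of fatty acid binding receptors of liver and gut, were below it as well. Of 7 measured HNF4A targets, all below background on every array, 4 had a lower mean, 3 a higher one and 0 passed the test. Apoa1, an HDL protein gene, differed by 0.21 (SE 0.11), Apoa2 by -0.11 (SE 0.09) and the bile acid enzyme gene Cyp8b1 by -0.07 (SE 0.17). Hepatocyte markers were below background too, among them Alb, at 4.29 to 4.42, and Ttr, at 4.16 to 4.26.

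The vitamin D receptor gene Vdr exceeded background on all arrays, and all 3 mice had the lower value in the metastatic tumour. Its log2 intensities were 9.02, 9.26 and 8.78 in primary and 8.89, 8.61 and 8.32 in metastatic tumours, or 9.02 ± 0.24 and 8.60 ± 0.28 (SD, n = 3). The highest metastatic value, in C1M3, exceeded the lowest primary value, in C2M3, so the groups overlapped. Vdr differed by -0.41 (SE 0.13), with an unadjusted p of 0.051 and an adjusted p of 0.841 in limma and a 95% interval from -0.83 to 0.003. Cyp24a1, which encodes the vitamin D degrading enzyme that the receptor induces, lay below background at 3.72 to 3.89. The other measured vitamin D targets, Trpv6, S100g and Calb1, ranged from 3.35 to 4.55, also below background on every array. Of the 4 targets 1 had a lower mean, 3 a higher one and 0 passed the test.

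Nr1d1, which encodes the clock repressor REV-ERB alpha, was below its primary value in the metastatic tumour of each mouse. The log2 intensities were 8.06, 9.24 and 8.20 in primary and 7.85, 8.51 and 7.46 in metastatic tumours, highest in C1M5 in both groups, with overlap between the groups. A mean difference of -0.56 (SE 0.15) had an unadjusted p of 0.0341 and an adjusted p of 0.841 in limma, with a 95% interval from -1.04 to -0.08. Without the block the unadjusted p was 0.255, and the difference was -0.19 in that fit without the primary tumour of C1M5. Nr1d2, which encodes the related REV-ERB beta, lay within 9.77 to 10.07 on every array and differed by 0.05 (SE 0.09), a 95% interval from -0.23 to 0.33.

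Rora, the gene of the activator ROR alpha that shares binding sites with the REV-ERB repressors, separated the mice more than the tissues. Its log2 intensities were 9.07, 7.97 and 7.90 in primary and 8.97, 7.01 and 7.59 in metastatic tumours, and both tumours of C1M3 were above all others. Metastatic values were lower in each mouse, with a mean difference of -0.46 (SE 0.21, adjusted p = 0.841 with limma) that was -0.21 without mouse C1M5. Without the block it was -0.04 when the metastatic tumour of C1M5 was left out and -0.08 when the primary tumour of C1M3 was. The probe set with the highest mean, used here, is annotated as an unmapped transcript, and a second one gave 6.47, 6.13 and 6.11 and 6.42, 5.96 and 5.99, again highest in C1M3 and lower in every metastatic tumour, over a narrower range. The remaining probe set lay at 3.61 to 3.80, below background, and was higher in the metastatic tumour of C1M3, at 3.80 against 3.61. The mean of the 3 probe sets differed by -0.17. Rorb lay below background at 3.92 to 4.14.

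Among clock and clock output genes, 11 of 14 had a lower mean and 3 a higher one, with a median of -0.07 and 0 past the test. Dbp, an output gene of the clock, had 6.76, 7.32 and 6.68 in primary and 6.79, 6.71 and 6.50 in metastatic tumours and differed by -0.26 (SE 0.16). Per2, a clock repressor gene, differed by -0.19 (SE 0.13) and Npas2, a clock activator gene, by -0.17 (SE 0.12). Npas2 was above background in the primary tumour of C2M3 alone. Arntl, which encodes the clock activator BMAL1 and is repressed by REV-ERB proteins, stayed within 7.85 to 8.03. The hour at which each tumour was taken is not given in the labels used here.

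**Figure D4:**
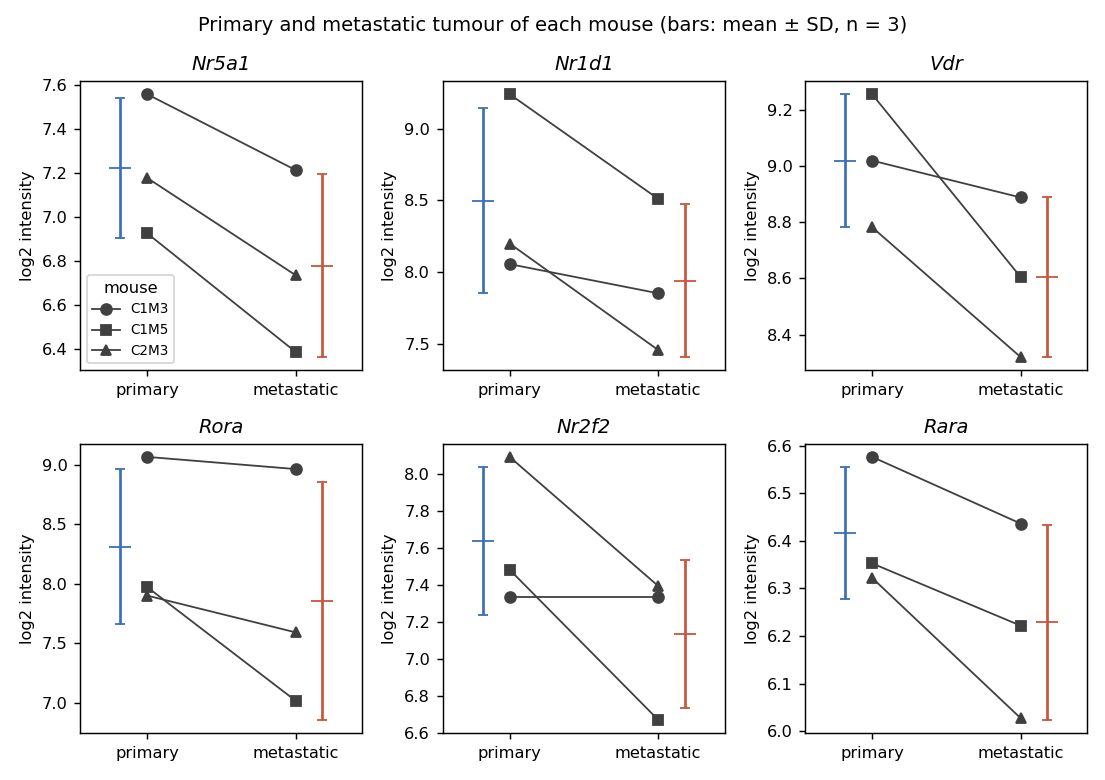
Log2 intensity (y axis) of 6 nuclear receptor genes in the primary and the metastatic tumour (x axis) of each mouse, joined by lines, with the mean ± SD of each group (n = 3) at the side in blue and red. Nr5a1, Nr1d1, Vdr, Rora and Rara were lower in the metastatic tumour of all 3 mice, and Nr2f2 in C1M5 and C2M3 with no difference in C1M3.

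Among RXR genes, the shared heterodimer partners, Rxrb was the steadiest, at 6.21 to 6.30 on all arrays and above background on each. Rxra lay at 5.10 to 5.51 and was above background on 3 arrays, with a difference of -0.12 (SE 0.11).

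The orphan receptor gene Nr2f2, which encodes COUP-TFII, a factor of veins, lymphatics and stroma, had 7.34, 7.48 and 8.10 in primary and 7.34, 6.67 and 7.40 in metastatic tumours. The primary tumour of C2M3 was highest and the metastatic tumour of C1M5 lowest, and endothelial gene means had the same extremes, with 6.30, 7.13 and 8.49 in primary and 7.45, 5.96 and 7.21 in metastatic tumours over 6 genes, of which 5 had a lower mean in metastatic tumours. The part of endothelial cells in the Nr2f2 values was not tested. The difference was -0.50 (SE 0.21, limma adjusted p = 0.841), 0 in C1M3, -0.81 in C1M5 and -0.70 in C2M3. Nr2f1 and Nr2f6, which encode related orphan receptors, lay at 5.50 to 5.94 and 5.33 to 5.62 and were above background on 3 arrays each. Nr2c1 and Nr2c2, the testicular orphan receptor genes TR2 and TR4, lay within 5.50 to 5.68 and 7.58 to 7.71. Nr2e1, a receptor gene of neural stem cells, lay at 3.82 to 3.84, and the estrogen-related receptor genes Esrrb and Esrrg at 3.77 to 3.92 and 3.94 to 4.12, all below background.

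The NR4A receptors are orphan factors whose genes are switched on within minutes by growth factors, cyclic AMP, calcium and other stimuli. Their promoters are shown because Nr4a1 and Nr4a2 had their highest values in the same tumour. The 250 bases before the transcription start are given 5′ to 3′ on the strand of the gene, from RefSeq on GRCm38.p6, with each CGTCA and its reverse complement TGACG, the core of the cyclic AMP response element, in capitals. The motif was chosen after these sequences were seen.
Nr4a1, plus strand, chr15:101266596-101266845: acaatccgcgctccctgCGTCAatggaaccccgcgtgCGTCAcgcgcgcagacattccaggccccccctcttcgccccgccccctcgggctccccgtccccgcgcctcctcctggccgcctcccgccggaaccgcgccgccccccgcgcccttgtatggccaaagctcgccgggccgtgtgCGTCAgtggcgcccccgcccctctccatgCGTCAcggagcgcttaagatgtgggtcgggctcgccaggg
Nr4a2, minus strand, chr2:57124004-57124253: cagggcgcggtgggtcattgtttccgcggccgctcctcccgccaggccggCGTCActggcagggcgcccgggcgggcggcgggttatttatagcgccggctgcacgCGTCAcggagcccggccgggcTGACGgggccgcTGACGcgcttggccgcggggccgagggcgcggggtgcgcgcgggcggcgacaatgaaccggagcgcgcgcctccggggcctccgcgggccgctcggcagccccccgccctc
Nr4a3, plus strand, chr4:48045055-48045304: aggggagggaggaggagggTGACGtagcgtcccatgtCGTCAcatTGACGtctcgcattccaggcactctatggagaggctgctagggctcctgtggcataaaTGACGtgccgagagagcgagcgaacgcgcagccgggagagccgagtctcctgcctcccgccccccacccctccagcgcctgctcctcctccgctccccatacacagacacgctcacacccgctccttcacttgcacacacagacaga

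Each of the 3 windows held 4 matches, counted on both strands. Of all 32851 RefSeq promoter windows of this length, 17.8% held at least 1 match and 0.137%, or 45, held at least 4. In Nr4a1 all 4 matches lay within the longer word TGCGTCA, and their first bases stood 233, 213, 69 and 40 bases before the start. This longer word contains CGTCA and, like the motif, was chosen after the sequences were seen. Searched on both strands, it occurred in 1.75% of all windows, and Nr4a1 was the only window with 3 or more. As the word repeats the letters at all 4 Nr4a1 matches, that rarity is no separate evidence. Nr4a2 and Nr4a3 held none of the longer word. A match describes the letters of a window and shows no binding.

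Nr4a1, which encodes NUR77, was high in both tumours of mouse C2M3. Its log2 intensities were 6.54, 6.73 and 8.52 in primary and 6.97, 6.51 and 10.80 in metastatic tumours, and the 4 tumours of C1M3 and C1M5 lay within 6.51 to 6.97. A mean difference of 0.83 (SE 0.61, limma adjusted p = 0.841) rested on C2M3: the 3 mice gave 0.42, -0.22 and 2.27, and the mean was 0.10 without C2M3. Nr4a2, which encodes NURR1, was also highest in the metastatic tumour of C2M3, with 5.03, 5.19 and 5.48 in primary and 5.20, 5.21 and 6.35 in metastatic tumours and a mean difference of 0.36 (SE 0.22), also 0.10 without C2M3. Nr4a3, the gene of NOR1, lay below background at 4.12 to 4.43.

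The immediate early genes Jun and Fos had their lowest values in that tumour. Jun, an AP-1 subunit gene, had 9.71, 9.65 and 9.34 in primary and 9.16, 9.004 and 7.54 in metastatic tumours, and the metastatic tumour of C2M3 was its lowest array. Its groups did not overlap, with a difference of -0.995 (SE 0.33, unadjusted p = 0.0555 and adjusted p = 0.841 with limma) that was -0.595 without mouse C2M3 and, without the block, -0.48 without its metastatic tumour. Fos, its partner gene, had 5.38, 5.42 and 4.95 in metastatic tumours and was also lowest in C2M3. Fosb was highest in that tumour, at 5.44 against 4.91 to 5.21 on the other arrays, and differed by 0.11 (SE 0.14). Fos and Fosb were each above background on 3 arrays and below it in the metastatic tumour of C2M3. The zinc finger gene Egr1 lay at 5.32 to 5.93 on all arrays. Of 8 measured immediate early genes 5 had a lower mean, 3 a higher mean and 0 passed the test.

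**Figure D5:**
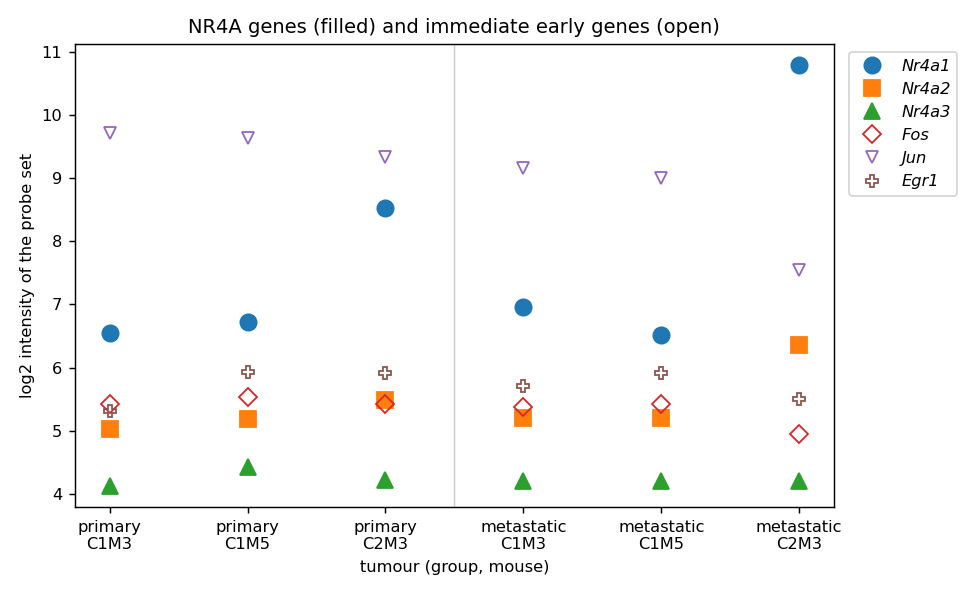
Log2 intensity (y axis) of the 3 NR4A genes (filled markers) and of Fos, Jun and Egr1 (open markers) in each of 6 tumours (x axis). Nr4a1 stood at 8.52 and 10.80 in the primary and metastatic tumours of C2M3, against 6.51 to 6.97 in the other 4, while Jun was lowest in the metastatic tumour of C2M3.

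Nr5a1 had the smallest unadjusted p of the family. It encodes steroidogenic factor 1, which drives steroid synthesis genes and gonad development. The log2 intensities were 7.56, 6.93 and 7.18 in primary and 7.21, 6.38 and 6.73 in metastatic tumours, above background on all 6 arrays. C1M3 was highest and C1M5 lowest in both groups, so that the groups overlapped, while each mouse had a lower metastatic value, by 0.35, 0.54 and 0.44. A mean difference of -0.44 (SE 0.07, 95% interval -0.65 to -0.23) had an unadjusted p of 0.00667 and an adjusted p of 0.841 in limma. Without the block the SE was 0.27 and the unadjusted p 0.166. Leaving out 1 mouse in turn gave -0.49 to -0.39.

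Among the NR5A, NR6A and NR0B receptors, grouped together here by role, Nr0b2 was also above background on all arrays, while Nr5a2, Nr0b1 and Nr6a1 were not. Nr5a2, which encodes LRH-1, lay at 4.01 to 4.20, and Nr0b1, the gene of the SF-1 repressor DAX-1, at 4.26 to 4.71, both below background. Nr6a1, the germ cell nuclear factor gene, lay at 5.08 to 5.30 and was above background on 3 arrays.

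Of 7 measured NR5A1 targets, 6 were lower on average in metastases, with a median of -0.50 and 0 past the test. Scarb1, which encodes the HDL receptor that supplies cholesterol, had 11.26, 9.17 and 10.34 in primary and 9.92, 8.45 and 9.20 in metastatic tumours, highest in C1M3 and lowest in C1M5 in both groups, as Nr5a1 was. It was lower by 1.34, 0.72 and 1.15 in the 3 mice, a mean of -1.07 (SE 0.16, unadjusted p = 0.00619 and adjusted p = 0.841 with limma). Star, which carries cholesterol into mitochondria, had 10.43, 10.52 and 10.10 in primary and 10.13, 10.10 and 9.89 in metastatic tumours. It differed by -0.31 (SE 0.07) and, unlike Nr5a1, was lowest in C2M3 in both groups. Amh, the gene of anti-Müllerian hormone, differed by -0.65 (SE 0.28) and was above background in the primary tumour of C2M3 alone. Inha, the inhibin alpha gene, had 16.07, 13.56 and 16.32 in primary and 15.55, 10.24 and 15.89 in metastatic tumours. In both groups C1M5 was lowest and, unlike for Nr5a1, C2M3 was highest. Inha differed by -1.42 (SE 0.77), or -0.48 without mouse C1M5.

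Of 8 measured marker genes of steroid-producing and granulosa cells, Inha and Amh among them, 6 were lower on average in metastases, with list means of 6.41, 6.30 and 6.91 in primary and 6.35, 5.60 and 6.60 in metastatic tumours. Cyp11a1, the side chain cleavage enzyme gene that begins steroid synthesis, had 4.55, 4.86 and 5.60 in primary and 4.65, 4.21 and 6.35 in metastatic tumours and was above background in the primary tumour and the metastatic tumour of C2M3. Hsd3b1 was at 3.85 to 4.02 on all arrays but the primary tumour of C2M3, where it was 5.69. The granulosa genes Fshr, at 3.96 to 4.48, and Foxl2, at 2.97 to 3.06, were below background on every array. The part of ovarian cells in the Nr5a1 values was not tested.

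Coregulators, the proteins through which receptors switch genes on or off, had lower means in metastatic tumours in 23 of 27 measured genes, or 85.2%, beside 43.9% of all genes. Centred arrays gave 24 of 27, beside 69.6%. None passed the test, and the median difference was -0.13. By mouse this median was 0 in C1M3, -0.17 in C1M5 and -0.14 in C2M3. Ncoa1, the steroid receptor coactivator SRC-1, had 8.27, 7.90 and 8.42 in primary and 7.90, 7.24 and 7.84 in metastatic tumours and was lower in each mouse, with a mean of -0.54 (SE 0.08, unadjusted p = 0.00743 and adjusted p = 0.841 with limma). The acetyltransferase gene Crebbp differed by -0.44 (SE 0.28). Tbl1x, an exchange factor of the NCoR complex, differed by -0.36 (SE 0.10), the corepressor gene Nrip1 by -0.45 (SE 0.23), and Sin3a by -0.28 (SE 0.09). Among 5 measured chaperones of steroid receptors, the widest difference was -0.37 (SE 0.36) for Fkbp4, whose primary tumour of C1M3 stood at 9.67 against 8.08 to 8.42 on the other arrays. Hsp90aa1 differed by -0.17 (SE 0.09) and Ptges3 by 0.16 (SE 0.11).

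Ppargc1a, which encodes PGC-1 alpha, a coactivator of several receptors in energy metabolism, had 10.86, 7.78 and 7.62 in primary and 9.65, 5.60 and 8.49 in metastatic tumours. Both tumours of C1M3 were the highest arrays, as for Rora, and the metastatic tumour of C1M5 was the lowest for both genes. The mean difference of -0.84 (SE 0.73) ranged from -1.69 to -0.17 when 1 mouse was left out.

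Over all receptor target lists together, 60 of 81 measured genes were lower on average in metastases, or 74.1% beside 43.9% of all genes. All 8 measured PPARG targets were among the 60. With centred arrays 71 of the 81 targets had a lower mean, beside 69.6% of all genes. By mouse the median difference of the 81 targets was 0.003 in C1M3, -0.16 in C1M5 and -0.18 in C2M3. None passed the test. At an unadjusted p under 0.05 in limma stood Pdk4, Scarb1 and Star, 3 of 81 and all lower, beside 1.97% of all genes.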

How the data were processed

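Tumour RNA of 6 samples was extracted from fresh frozen tissue and labelled with biotin, per the labels. The deposited values are log2 intensities per probe set, 1 array per tumour, and the submitters' processing notes name RMA (background correction, quantile normalization and probe summary) and Transcriptome Analysis Console, without versions. The genome build and scan batches are not given in the sources used here. Symbols of 827 probe sets were updated through Entrez Gene identifiers with a RefSeq table of GRCm38.p6, and 30604 probe sets with 1 symbol gave 30142 genes.

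Differences between the tissues were fitted by limma 3.58.1 under R 4.3.3 (tissue plus mouse, two-sided, Benjamini-Hochberg over all genes, threshold 0.05). Pairing comes from the donor label; deviations of a mouse's tumours from their group means correlated with r = -0.05, 0.35 and 0.07 across genes in C1M3, C1M5 and C2M3. On simulated data with the real spread, this fit over 30142 genes recovered 0 of 100 genes changed by 2-fold and 27 of 100 changed by 4-fold. The number of arrays limits the precision.

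Values by array were to be given for receptors above background on all 3 arrays of a group whose difference had 1 sign in all 3 mice, was at least 0.5 in size, or whose range was at least 2, and the 3 widest differences of each coregulator, target and marker list were to be named, of which those of markers are given only in part. Receptors outside this rule, and other examples, were chosen after their values were seen. Members and lists were chosen with earlier results of these data known. RefSeq promoters were found for 42 of the 46 receptors. Figures were drawn with matplotlib 3.10.9.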

Additional observations from a re-analysis of the deposited data

How the results depend on the processing

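The alternatives were a fit without the mouse as a block, each mouse left out, each array left out without the block, centring on the array median or on sensory receptor genes, a filter on dim genes, array weights, an intensity trend and the mean of all probe sets of a gene. In all of them 0 receptors, 0 coregulators and 0 targets passed the test. Centring on sensory receptor genes called 5 other genes. The fit without the replicate block gave 0 receptors past the threshold and changed no call. Receptors with a lower mean numbered 23 to 36 over the alternatives, and 24 to 27 without 1 mouse. Leaving out a mouse gave 19 to 21 coregulators and 53 to 60 targets with a lower mean, and 0 past the test. Of 367 recomputed differences of 23 named genes, 358 kept their direction and side of the threshold and 9 changed sign. Much of that agreement was fixed by the design and is no measure of robustness. On all arrays, dropping the block, the intensity trend and the filter on dim genes return the same difference by construction. A gene with the same sign in every mouse could not reverse when a mouse was left out of the blocked fit. No named gene passed in the main fit, so a side could change only by a gain. Without the block, leaving out the metastatic tumour of C2M3 gave -0.52 for Nr4a1 and -0.0275 for Nr4a2, and leaving out that of C1M5 gave 0.40 for Inha and 0.32 for Ppargc1a. Leaving out the primary tumour of C1M3 gave 0.22 for Ppargc1a and -0.14 for Nr3c1, which was -0.0142 without both tumours of C1M3. Nr1h3 was 0.0936 when mouse C2M3 was left out, and again when its primary tumour alone was left out. Receptors above background on all 6 arrays numbered 14, against 1 with the 99th percentile as the limit, 22 with the median of all genes, and 14 to 16 without 1 mouse. Signal over background limits what can be said of the 14 receptors below it on every array, whose values give no order.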
